A study of Drosophila melanogaster with 3 samples.

Results

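Cuticle protein genes of Drosophila melanogaster were examined for summits of the transcription factor salr in chromatin of whole prepupae. Earlier results of these data were known when the set was chosen. Its genes were taken by symbol, as protein-coding genes named Cpr, Lcp, Ccp84 or Twdl in the Ensembl BDGP6 annotation. There were 117 of them among 13945 protein-coding genes on 6 chromosome arms: 70 Cpr, 25 Twdl, 15 Lcp and 7 Ccp84 genes. Genes with under 20 kb between their bodies were joined, which gave 17 clusters of 2 to 17 genes holding 89 of the cuticle genes, with 28 lying singly. The chromatin came from a transgenic line that stably expresses the zinc finger factor salr (spalt-related) with GFP at its C terminus, at the prepupal stage, age 24 hours, with both sexes pooled. The 3 libraries are biological replicates of this single group. Whole animals were used, so weak binding in many cells and strong binding in few cells cannot be told apart. The labels contradict each other. A free-text line calls each library an input, whereas the assay is titled as ChIP-seq, the antibody is given as salr and a control is named apart, and the libraries were read as immunoprecipitated chromatin.

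The insect cuticle is a layered sheet of chitin fibres and proteins secreted by the epidermis, and it is rebuilt at each moult under the control of ecdysone and of the nuclear receptors that ecdysone induces. Cpr proteins carry the Rebers and Riddiford consensus, which binds chitin. Lcp and Ccp84 proteins, named after larval cuticle and after a gene cluster at cytological position 84, belong to the same superfamily. Tweedle proteins (Twdl) form a separate family of structural cuticle proteins, known from mutations that make the body short and squat. Many of these genes arose by tandem duplication and stand side by side. Around the prepupal stage, the old larval cuticle has become the puparium and the pupal cuticle is laid down beneath it. The spalt proteins are known for roles in wing, eye, trachea and flight muscle.

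Peaks were deposited in 3 kinds of list. Each library has a list of 30000 peaks, the pooled alignments have another of 30000, and 3839 of the pooled peaks also stand in the list kept after a threshold on the irreproducible discovery rate (IDR). The lists of 30000 include weak peaks and background by design. Peaks in the IDR list are called strong here and the other 26161 pooled peaks weak. Relative signal is the deposited signal value of a peak divided by the median of its own list, so that 1 is the median peak. The weakest IDR peak had a relative signal of 2.49 in the pooled list. Read numbers are not part of the peak lists. The depth is therefore unknown. Each library list and the pooled list stop at 30000 peaks, so a summit that is missing is one outside that number. Whether it would be detected in a longer list or at greater depth cannot be told.

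Strong summits were nearly missing from cuticle genes, whereas weak ones were not. Of the 117 cuticle genes, 1 had an IDR summit no farther than 1000 bp from a transcription start site (TSS), which is 0.855% (Wilson interval 0.151% to 4.68%), against 14.8% of all protein-coding genes. A pooled summit of any strength lay within that distance at 31 cuticle genes, 26.5% (19.3% to 35.1%), against 44.4% of all protein-coding genes. The libraries listed a summit within that distance at 42, 20 and 32 cuticle genes in libraries 1, 2 and 3. These are 35.9%, 17.1% and 27.4% of the cuticle genes, a mean of 26.8% ± 9.41 (SD, n = 3), against 53.7%, 50.7% and 38.8% of all protein-coding genes, a mean of 47.7% ± 7.86 (SD, n = 3). In each library the cuticle genes lay below all protein-coding genes. Library 2 stood lowest of the 3 for cuticle genes but not for all genes. Intervals cover counting error only, and genes of a cluster are not independent of each other. With 3 libraries an exact two-sided sign-flip test cannot go below p = 0.25, so differences are described without a test.

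Cuticle genes are short and have few start sites. Their median length was 983 bp, against 2166 bp over protein-coding genes, and 107 of 117 had a single TSS. Among protein-coding genes with a single TSS and under 2000 bp, 30.9% had a pooled summit and 7.33% an IDR summit. The 95 cuticle genes of that kind had 23.2% (15.8% to 32.6%) and 1.05% (0.186% to 5.72%). In the pooled list, the share with any summit thus lay within counting error of that of short genes. The share with an IDR summit lay below that of short genes. In libraries 1, 2 and 3 these cuticle genes had 30.5% (22.2% to 40.4%), 13.7% (8.17% to 22.0%) and 23.2% (15.8% to 32.6%). Short genes had 40.5%, 34.5% and 28.3%. The share of short genes lay above the interval in library 2 and narrowly in library 1, and within it in library 3.

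**Figure D1:**
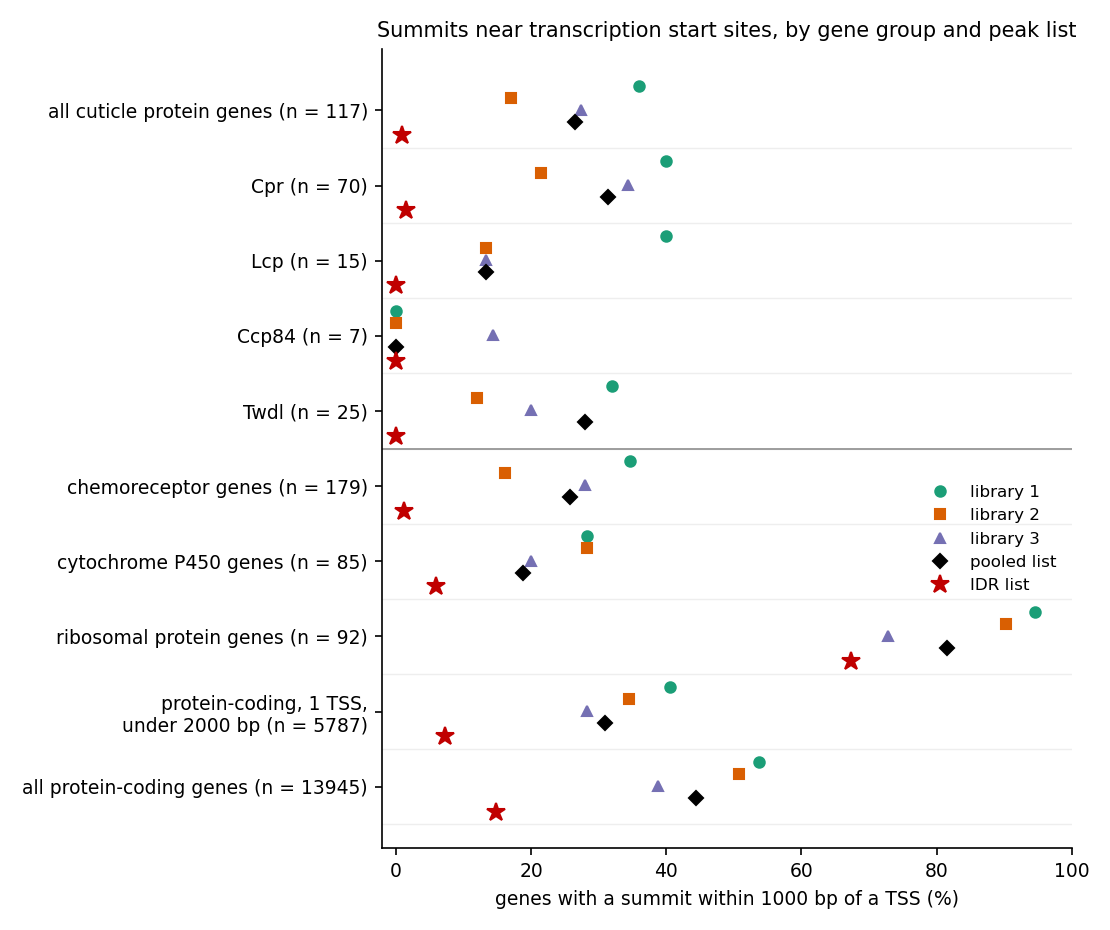
Share of genes in each group with a summit within 1000 bp of a TSS, in percent, by list; circles, squares and triangles are the 3 libraries, diamonds the pooled list and stars the IDR list. All cuticle protein genes stand at 26.5% in the pooled list and 0.855% in the IDR list, against 44.4% and 14.8% for all protein-coding genes.

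By family, Cpr genes had a pooled summit in 22 of 70 cases (31.4%) and held the single gene with an IDR summit. Tweedle genes had a pooled summit at 7 of 25, Lcp genes at 2 of 15 and Ccp84 genes at 0 of 7. The count of 0 for Ccp84 allows a share of up to 35.4% (upper Wilson bound), since the family is small. Median distance from a TSS to the nearest pooled summit was 2081 bp for Cpr, 4198 bp for Twdl, 5756 bp for Lcp and 15548 bp for Ccp84 genes, against 1465 bp for all protein-coding genes. To the nearest IDR summit it was 20075 bp for Cpr, 60529 bp for Twdl, 35244 bp for Lcp and 66948 bp for Ccp84 genes, against 11385 bp for all protein-coding genes. The libraries did not keep the pooled order of Twdl, Lcp and Ccp84. The median to the nearest library summit was 2465, 3613 and 5281 bp for Ccp84 genes in libraries 1, 2 and 3. It was 4581, 7609 and 3279 bp for Twdl, 2260, 5752 and 6161 bp for Lcp and 1464.5, 3168 and 1942 bp for Cpr genes. All 7 Ccp84 genes lie in a single cluster. Within 10 kb of an IDR summit lay 20 of the 117 cuticle genes (17.1%), against 46.2% of all protein-coding genes.

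Other gene families gave a scale for these shares, of which the ribosomal protein genes are mostly dispersed. Chemoreceptor genes (odorant, gustatory and ionotropic receptors of sensory neurons) had a pooled summit at 25.7% and an IDR summit at 1.12% of 179 genes, close to the cuticle genes. Cytochrome P450 genes, which encode enzymes of hormone synthesis and detoxification, had 18.8% and 5.88% of 85 genes. Cytoplasmic ribosomal protein genes, expressed in every cell, had 81.5% and 67.4% of 92 genes, only 10 of which lie in clusters by the same rule. Cuticle and chemoreceptor genes were thus both low in strong summits, and their intervals overlapped in both lists. Inside clusters of such genes, IDR peaks made up 3 of 53 pooled summits for chemoreceptors (5.66%, Wilson interval 1.94% to 15.4%), 1 of 12 for cytochrome P450 genes (8.33%, 1.49% to 35.4%) and 7 of 15 for ribosomal protein genes (46.7%, 24.8% to 69.9%). The chemoreceptor and P450 intervals overlap that of cuticle clusters given further on.

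The single cuticle gene with an IDR summit was Cpr72Eb (FBgn0036618), the middle gene of a cluster of 3 Cpr genes on 3L. Its peak spanned chr3L:16364266-16364373 (dm6), with the summit 554 bp upstream of the TSS in intergenic sequence. Relative signal was 4.03, 4.34 and 7.22 in libraries 1, 2 and 3, a mean of 5.20 ± 1.76 (SD, n = 3), and 6.62 in the pooled list, where the peak ranked 925. All 3 libraries placed it among their 3839 strongest peaks. A second IDR peak lay just outside the same cluster, 1222 bp upstream of Cpr72Ea (chr3L:16361264-16361513), and was stronger. It had a relative signal of 7.36, 5.02 and 8.99 in libraries 1, 2 and 3, and 8.88 in the pooled list at rank 525. Cpr72Ea itself had a weak summit 53 bp downstream of its TSS, at 0.701 in the pooled list. The third gene, Cpr72Ec, had no pooled summit within 1000 bp and lay 2995 bp from the nearest IDR summit.

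The windows of 101 bases centred on these summits are shown because they carry the only IDR summit at a cuticle gene and its stronger neighbour, with a weak summit of a Tweedle gene beside them. They are given 5′ to 3′ on the plus strand of the Release 6 sequence, and capitals mark runs of 6 or more A or T bases.
Cpr72Eb summit, chr3L:16364295-16364395: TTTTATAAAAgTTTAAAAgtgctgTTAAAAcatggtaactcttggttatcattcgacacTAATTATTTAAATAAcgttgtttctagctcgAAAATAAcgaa
Cpr72Ea upstream summit, chr3L:16361331-16361431: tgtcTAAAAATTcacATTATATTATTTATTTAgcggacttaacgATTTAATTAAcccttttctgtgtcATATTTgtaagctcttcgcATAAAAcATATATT
TwdlF summit (weak, in 1 library), chr3R:4247292-4247392: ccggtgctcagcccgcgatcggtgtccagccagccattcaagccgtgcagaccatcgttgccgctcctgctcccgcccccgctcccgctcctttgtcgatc
The Cpr72Eb and Cpr72Ea windows held 26.7% and 25.7% G and C, with 45 and 54 of 101 bases in such runs. The TwdlF window held 68.3% with 0. It was chosen after its values were seen.

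Base composition at cuticle peaks was near that of weak peaks in general. The strongest pooled peak of each of the 31 cuticle genes had a median of 47.5% G and C and 7 bases in A/T runs. Over all weak pooled peaks these were 45.5% and 9, and over all IDR peaks 34.7% and 21. Cpr72Eb had the lowest G and C content of the 31.

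The other cuticle peaks were weak in the pooled list. Over the 31 genes, which had 31 distinct strongest peaks, the pooled relative signal ran from 0.675 to 6.62 with a median of 0.872, against 1.48 over the 4855 distinct strongest peaks of all protein-coding genes. Next after Cpr72Eb came 2.05, below the weakest IDR peak. The strongest peak was matched, within 100 bp, in all 3 libraries at 4 cuticle genes, in 2 libraries at 8, in 1 at 13 and in none at 6. Over all protein-coding genes, 16.6% had a pooled summit matched in all 3 libraries, against the 4 of 117 here.

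Cpr97Ea (FBgn0039480) had its summit 137 bp downstream of the TSS, in the UTR (chr3R:27087469-27087812). Relative signal was 1.98, 1.96 and 1.03 in libraries 1, 2 and 3, a mean of 1.65 ± 0.544 (SD, n = 3). Cpr62Ba (FBgn0035279) had its summit 820 bp upstream, in an intron (chr3L:1829590-1829933), with 1.37, 1.91 and 1.72 in libraries 1, 2 and 3. Both peaks were found in every library but stood well under Cpr72Eb in each of them.

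Cpr47Ec (FBgn0033600), the last of the 4, had its summit 912 bp downstream of the TSS in intergenic sequence (chr2R:11258892-11259235), with 1.02, 1.51 and 1.75 in libraries 1, 2 and 3. Cpr65Ea (FBgn0035735) had a peak 974 bp upstream that was matched in library 3 alone, at 2.74. That library placed it among its 3839 strongest peaks. Strong library summits of this kind lay at 1, 1 and 2 cuticle genes in libraries 1, 2 and 3, against 16.6%, 13.8% and 13.0% of all protein-coding genes.

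The remaining genes among the 12 with the strongest pooled peaks were Cpr73D (1.33 in the pooled list), Cpr97Eb (1.25), Lcp65Ad (1.22), Cpr47Ed (1.16), Cpr12A (1.12), TwdlC (1.09) and Cpr49Ac (1.05). None of these 7 peaks was matched in all 3 libraries. Cpr97Eb was matched in libraries 1 and 2, Lcp65Ad, Cpr47Ed and TwdlC in libraries 1 and 3, Cpr73D and Cpr12A in library 3, and Cpr49Ac in no library. At Cpr73D the nearest TSS was that of Ogdh, an enzyme gene of the citric acid cycle, so the peak cannot be given to the cuticle gene alone.

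**Figure D2:**
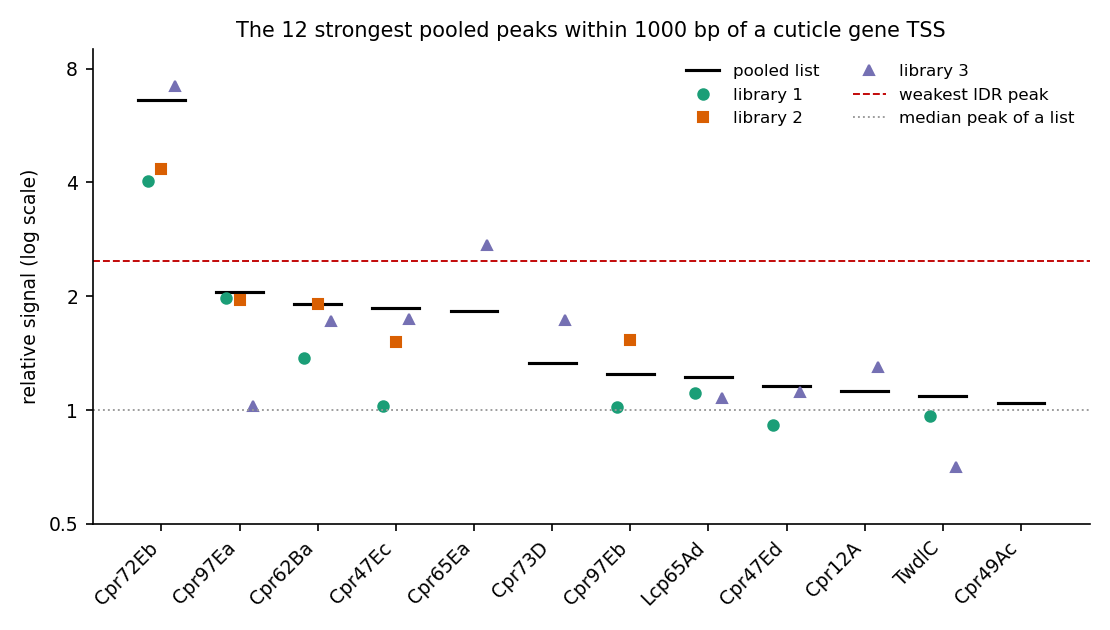
Relative signal (log scale) of the 12 strongest pooled peaks within 1000 bp of a cuticle gene TSS; bars give the pooled list, symbols those libraries that had a matching summit, the dashed line the weakest IDR peak (2.49) and the dotted line the median peak of a list. Cpr72Eb stands above the dashed line in all 3 libraries, and Cpr65Ea in library 3 alone.

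Cuticle summits lay on both sides of the start site. Of the 31 strongest peaks, 15 lay upstream and 16 downstream of the gene's own TSS, and 4 lay within 200 bp upstream. A cuticle gene had the nearest TSS at 29 of them, and Ogdh and the odorant receptor gene Or49a at the other 2. Each peak was picked for lying within 1000 bp of a cuticle TSS, which favours a high count of this kind. Neither split is given here for the peaks of all protein-coding genes. Counting each library by itself, 10 cuticle genes had a summit within 1000 bp in all 3 library lists, 14 in 2, 36 in 1 and 57 in none. Of the 57, 55 had no pooled summit either. The same counts over all protein-coding genes are not given here, so these have no direct scale. Taken singly, libraries 1, 2 and 3 listed a summit at 53.7%, 50.7% and 38.8% of all protein-coding genes. Nearest to the limit of 1000 bp, Cpr65Ea had its summit at 974 bp and Cpr50Cb at 1007 bp.

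The clusters were read next, from the start of the first gene to the end of the last, with borders of 10 kb on each side. Weak peaks lay both inside clusters and at borders, 51 and 44 of them, whereas 1 IDR peak lay inside and 8 at borders. The 17 spans cover 284209 bp and held 52 pooled summits, 1.83 per 10 kb, of which 1 (1.92%, Wilson interval 0.340% to 10.1%) was an IDR peak. The borders cover 340000 bp and held 52 pooled summits, 1.53 per 10 kb, of which 8 (15.4%, 8.01% to 27.5%) were IDR peaks. The 6 arms held 2.24 pooled summits per 10 kb, 12.8% of them IDR peaks. The interval inside clusters lay below the share over the arms, and that of the borders included it. The contrast depends on where the line for strong peaks is drawn: of the 1000 strongest pooled peaks, 1 lay inside (1.92% of the pooled summits there) and 2 at borders (3.85%), against 3.33% of all pooled peaks.

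The libraries showed the same order for strong peaks and a less even one for density. The 3839 strongest peaks of a library made up 1.61%, 3.45% and 3.64% of the summits inside clusters in libraries 1, 2 and 3, a mean of 2.90% ± 1.12 (SD, n = 3). These were 1 of 62, 1 of 29 and 2 of 55 peaks, with the Cpr72Eb peak among them in each library. At borders the strongest peaks made up 13.9%, 15.4% and 14.3% (11 of 79, 10 of 65 and 8 of 56), a mean of 14.5% ± 0.761. Over the arms the share is 12.8% by construction. In each library the inside lay below the border. Density inside clusters was 2.18, 1.02 and 1.94 summits per 10 kb in libraries 1, 2 and 3, against 2.32, 1.91 and 1.65 at borders and 2.24 over the arms. Library 2 was the lowest inside clusters, and library 3 alone had a higher density inside than at borders.

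The median relative signal of library peaks inside clusters was 0.898, 0.800 and 0.920 in libraries 1, 2 and 3, a mean of 0.873 ± 0.0641 (SD, n = 3). At borders it was 0.945, 0.975 and 0.961, a mean of 0.960 ± 0.0150, so the inside was lower in each library. Cluster spans are dense in start sites: 65.8% of their bases lie within 1000 bp of a TSS of any gene, against 36.7% of the borders and 23.6% of the arms.

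**Figure D3:**
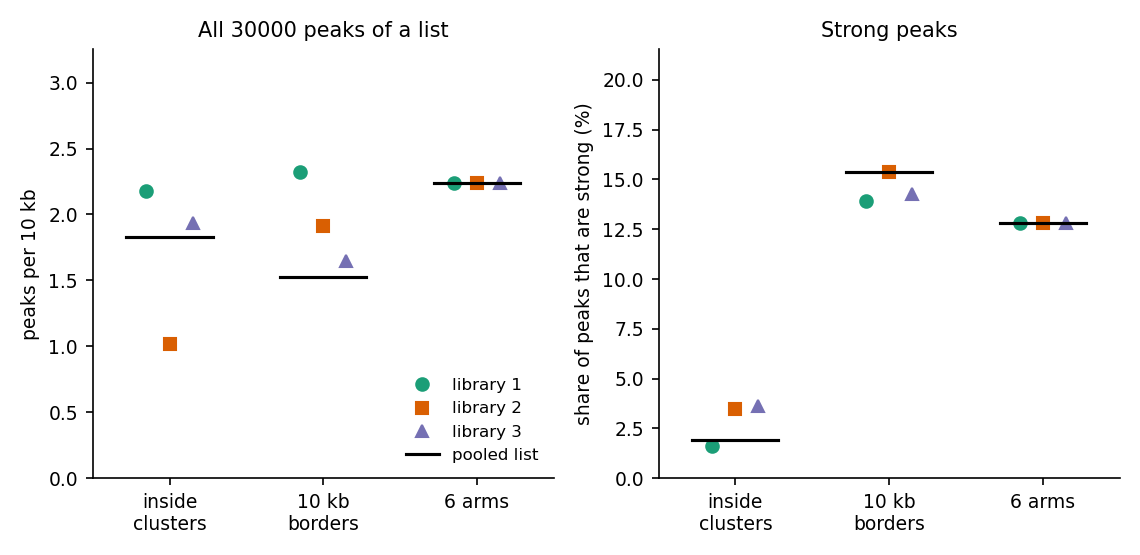
Peaks per 10 kb (left) and share of strong peaks in percent (right) inside clusters, in the 10 kb borders and over the 6 arms; symbols are libraries, with strong meaning the 3839 strongest of a library, and bars the pooled list, with strong meaning IDR peaks. Strong peaks make up 1.61% to 3.64% of library peaks inside clusters (1 or 2 peaks in each library) and 13.9% to 15.4% at borders.

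The 8 strong border peaks lay at 5 of the 17 clusters, and 3 of them had a cuticle gene as the nearest TSS. Distances to the cluster edge ran from 838 to 7609 bp. The strongest by far was on the right of the Cpr78Ca to Cpr78Cc cluster, 3394 bp from its end (chr3L:21304429-21304716), where right means the side of higher coordinates. Its summit lay 93 bp downstream of a TSS of CG11309. Relative signal was 27.1, 22.1 and 22.6 in libraries 1, 2 and 3, a mean of 23.9 ± 2.73 (SD, n = 3), and it ranked 27 among all pooled peaks. On the left of the same cluster an IDR peak stood 7 bp from the TSS of CG12974, with 4.25 in library 1 and 3.19 in library 3 and no match in library 2. Between these strong peaks the cluster itself held 3 weak summits with pooled relative signals of 0.796, 0.837 and 0.796, and the interval without an IDR peak measured 18611 bp.

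At the Cpr76Ba to Cpr76Bd cluster an IDR peak lay 838 bp outside the left edge, 1618 bp downstream of the TSS of Cpr76Ba in intergenic sequence (chr3L:19516630-19516801). Relative signal was 5.60, 1.30 and 7.91 in libraries 1, 2 and 3. Library 2 was far below the other 2, and the pooled value was 6.30. Inside, the cluster had 4 summits from 0.701 to 0.799. At the Cpr62Ba to Cpr62Bc cluster an IDR peak lay 1821 bp outside the left edge in an intron, with 2.41, 3.63 and 1.47 in libraries 1, 2 and 3.

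Sequences at these border summits are shown for comparison with the Cpr72E windows, with the same marking. The strength of a border peak and its A/T content did not go together in every case.
Right of Cpr78C, chr3L:21304515-21304615: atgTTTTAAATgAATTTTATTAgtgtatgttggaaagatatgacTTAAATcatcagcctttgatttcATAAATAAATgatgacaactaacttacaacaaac
Left of Cpr76B, chr3L:19516664-19516764: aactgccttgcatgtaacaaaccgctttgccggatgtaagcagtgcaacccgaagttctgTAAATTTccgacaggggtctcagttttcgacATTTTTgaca
Left of Cpr62B, chr3L:1822258-1822358: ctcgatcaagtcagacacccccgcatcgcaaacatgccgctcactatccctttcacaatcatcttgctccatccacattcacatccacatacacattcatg
The Cpr78C window held 24.8% G and C and 34 bases in A/T runs. The Cpr76B window held 45.5% and 13, and the Cpr62B window 48.5% and 0. Over the 8 border IDR peaks the median was 41.6% G and C and 11.5 bases in runs, against 34.7% and 21 over all IDR peaks.

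The Tweedle cluster on X, from TwdlX to Twdlalpha, was flanked by strong peaks on both sides and empty between them in the pooled list. It held 0 pooled summits over 13275 bp, and the libraries listed 0, 0 and 1 summits there. On its left an IDR peak lay 7322 bp out in an intron, 2358 bp upstream of the nearest TSS, that of CG34325 (2.98, 4.24 and 3.85 in libraries 1, 2 and 3). On its right an IDR peak lay 6819 bp out, 726 bp downstream of a TSS of goe (3.25, 3.35 and 5.80), and another lay 64 bp upstream of that TSS (2.93 in library 1, 3.74 in library 3, none in library 2). The whole cluster span (chrX:16731091-16744365) lies within the body of goe (chrX:16727304-16751910). The peaks at goe are also the single case of an IDR summit at a gene that overlaps a span and is no cuticle gene.

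**Figure D4:**
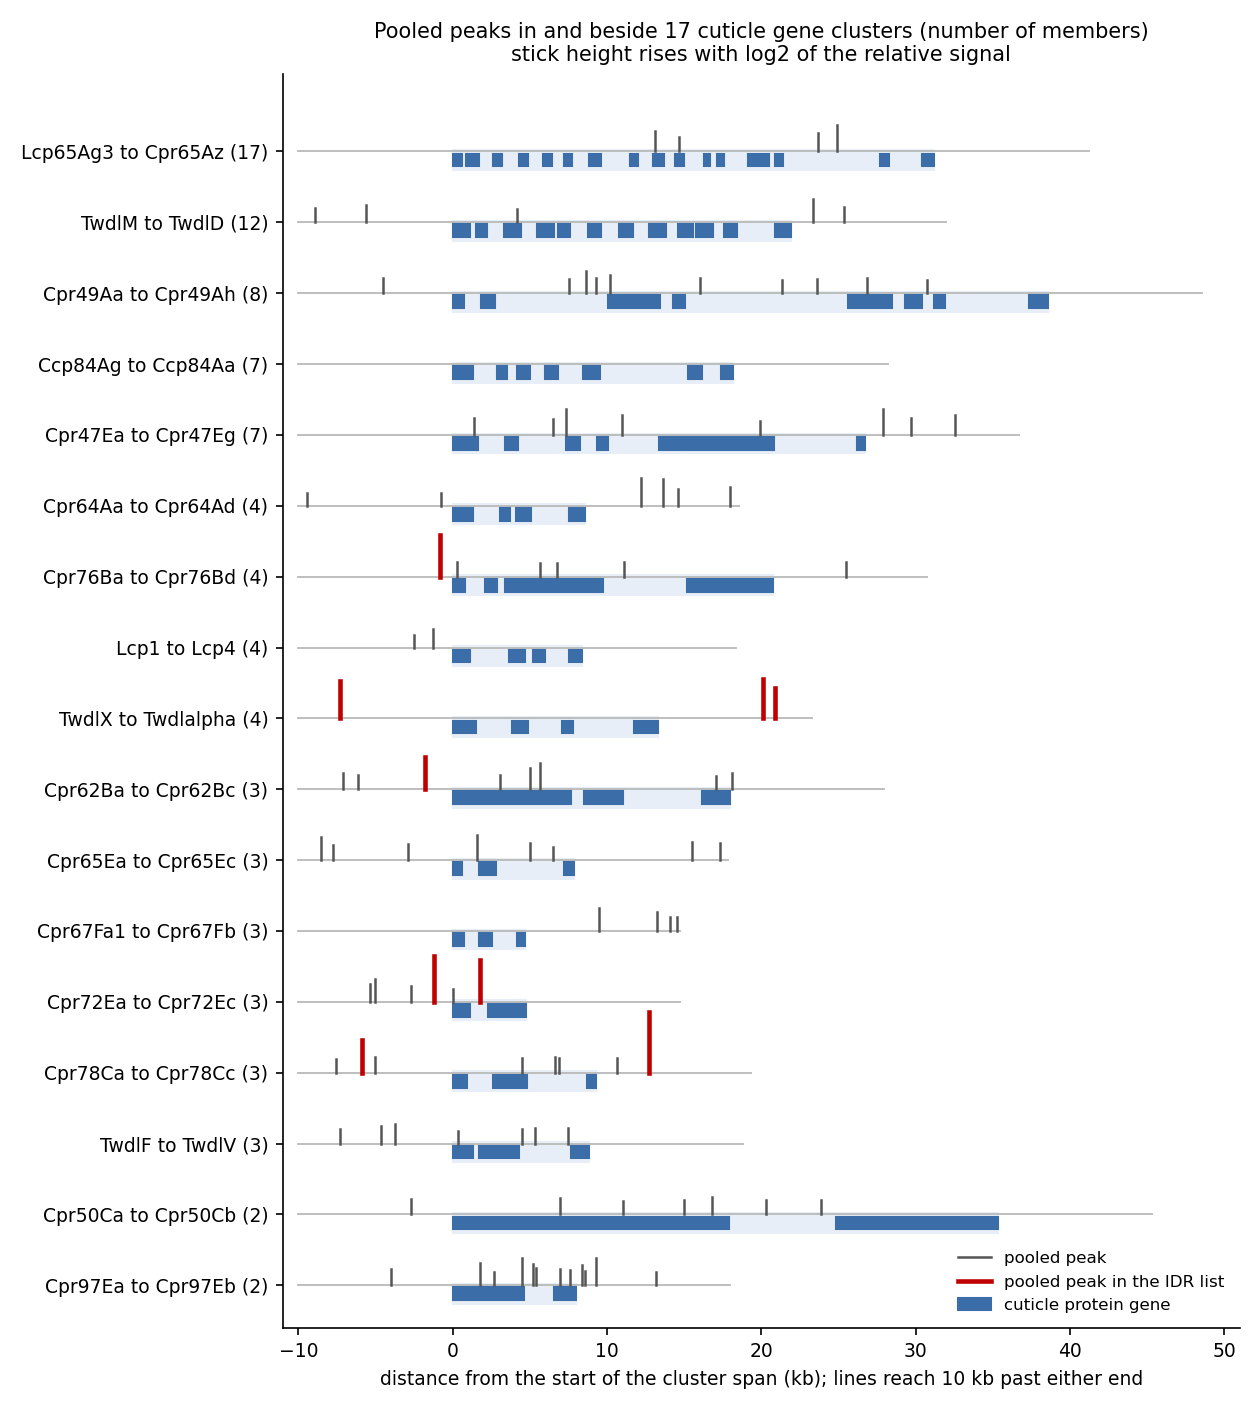
Pooled peaks in the 17 clusters and 10 kb to either side; the horizontal axis is the distance in kb from the start of the cluster span, blue boxes are cuticle genes, sticks are pooled summits (height rises with log2 relative signal) and red sticks are IDR peaks. Of 9 red sticks, 1 stands inside a span, in Cpr72Ea to Cpr72Ec, and 8 stand beside spans.

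The 5 clusters of 5 or more genes, with 51 genes in all, held no IDR peak inside or at a border. The largest, on 3L from Lcp65Ag3 to Cpr65Az, has 17 Lcp and Cpr genes in 31204 bp and held 4 pooled summits. Its strongest, with 2.04 in the pooled list, lay 89 bp upstream of lncRNA:CR45421 and not at a cuticle gene, and was matched in library 1 (1.38) and library 3 (1.11). Neither border held a pooled summit. In this cluster 15.7% of 50-base words occur more than once in the 6 arms, so summits of near copies are uncertain. How the authors treated reads that map to several places is not given in the sources used here, and its part in the low number of summits was not tested.

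The Tweedle cluster on 3R, from TwdlM to TwdlD, has 12 genes in 21937 bp. It held 1 pooled summit, 227 bp downstream of the TSS of TwdlB, at 0.701, found in library 3 alone (0.715). The strongest border peak was 1399 bp to its right, 2428 bp downstream of the TSS of TwdlD, at 1.60 in the pooled list. On the left the strongest lay 3061 bp from the TSS of lncRNA:CR45788, at 0.938. The nearest IDR peaks stood 76772 bp to the left and 73318 bp to the right. TwdlK, inside this cluster, was the cuticle gene farthest from an IDR summit, at 85648 bp.

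The Ccp84 cluster, 7 genes in 18176 bp, was the emptiest of the 17 in the pooled list. It held 0 pooled summits inside and 0 in either border, and the libraries listed 3, 1 and 2 weak summits inside. The stretch without an IDR peak around it measured 335572 bp, the longest of the 16 clusters that held none. Over those 16 it ran from 18611 bp upwards with a median of 105385 bp, and 8 exceeded 100 kb. Over all 3833 gaps between neighbouring IDR summits the median was 11785 bp, and 7.54% exceeded 100 kb. The 2 sets are not alike, since a stretch picked for holding a whole cluster tends to be a long one. Repeated 50-base words made up 3.88% of the Ccp84 span and 4.62% of the TwdlM to TwdlD span.

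The Cpr47Ea to Cpr47Eg cluster on 2R, 7 genes in 26695 bp, held 5 pooled summits, with the strongest at Cpr47Ec as given above. The strongest border peak lay 1220 bp to its right, 18 bp from the TSS of CG9067, at 1.82 in the pooled list, with 1.66 in library 1, 2.32 in library 2 and no match in library 3. The left border held none. The Cpr49Aa to Cpr49Ah cluster, 8 genes in 38545 bp, held 9. Its strongest, at 1.36, lay nearest to CG8501, and its left border had a single summit, at 0.803, 537 bp downstream of the TSS of CG13160. No repeated 50-base words were found in either of these 2 clusters (0%).

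Among the smaller clusters, Cpr97Ea to Cpr97Eb was the densest, with 7 pooled summits in 8001 bp, 8.75 per 10 kb, all weak, and 6, 6 and 5 summits in libraries 1, 2 and 3. Over all 17, 5 clusters with 22 genes held no pooled summit: Lcp1 to Lcp4, Cpr64Aa to Cpr64Ad, Cpr67Fa1 to Cpr67Fb, Ccp84Ag to Ccp84Aa and TwdlX to Twdlalpha. The first 3 of these have short spans, of 8381, 8577 and 4704 bp. At the 2.24 pooled summits per 10 kb of the arms, spans this short would hold few in any case. Cpr67Fa1 to Cpr67Fb, the shortest span of the 17, was also empty in each of the 3 library lists (0 summits). Empty clusters could still have peaks outside: Cpr64Aa to Cpr64Ad had 4 pooled summits on its right, up to 2.13, of which 3 lay nearest to asRNA:CR32252 and 1 to ImpL2, which encodes an insulin-binding protein. In all, 12 of the 17 clusters, with 72 of the 89 clustered genes, had no IDR peak inside or within 10 kb. The same count for clusters of other families or for stretches of like length is not given here, so it has no direct scale.

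Summits inside clusters lay mostly near start sites, about as often as bases do. Of the 52, 35 (67.3%) lay within 1000 bp of a TSS, close to the 65.8% of bases that do. With that class set aside, 21 lay in intergenic sequence, 17 in introns, 11 in coding exons and 3 in UTRs. Coding exons held 21.2% of summits inside clusters and 17.3% at borders, against 6.31% of all pooled summits. The share of bases in coding exons is not given here for any of these zones. Whether summits favour coding exons there cannot be told from these shares. A cuticle gene had the nearest TSS at 38 of the 52 inside and at 13 of the 52 at borders. In all 3 libraries 5 of the 52 inside and 9 of the 52 at borders were matched, against 19.8% of all pooled summits.

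Other genes overlap the spans. Of 19 other protein-coding genes that overlap a span, 8 (42.1%, 23.1% to 63.7%) had a pooled summit within 1000 bp, against 23 of 89 clustered cuticle genes (25.8%, 17.9% to 35.8%). The intervals overlap. Single cuticle genes had a pooled summit at 8 of 28 (28.6%, 15.3% to 47.1%), with an interval that includes the share of the clustered ones. In libraries 1, 2 and 3 a summit lay at 14, 10 and 9 of the 28 single genes, a mean of 39.3% ± 9.45 (SD, n = 3). Clustered genes had 28, 10 and 23 of 89, a mean of 22.8% ± 10.4. The share of single genes was thus the higher in each library. The intervals lay apart in library 2 (20.7% to 54.2% against 6.22% to 19.5%) and overlapped in libraries 1 and 3.

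The word TATAAA, which is the core of the TATA box that positions RNA polymerase II, was searched on the gene's own strand from 40 to 15 bases before the most upstream TSS. It was present at 65 of 117 cuticle genes (55.6%), against 7.79% of all protein-coding genes and 12.7% of those with a single TSS under 2000 bp. It was found at 34 of 70 Cpr, 11 of 15 Lcp, 5 of 7 Ccp84 and 15 of 25 Twdl genes, against 2.79% of chemoreceptor, 17.6% of cytochrome P450 and 1.09% of ribosomal protein genes. Cuticle genes with a pooled summit held it at 58.1% of 31 and those without at 54.7% of 86, so the word did not separate them. Over all protein-coding genes, 5.80% of those with the word and 15.6% of those without it had an IDR summit.

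Core promoters from 50 bases before to 10 bases from the TSS onward are shown for the first and last gene of 3 of the 5 clusters of 5 or more genes and for the Cpr72E genes, to show where the word stands. The Cpr47E and Cpr49A clusters are not shown. The word was present in the window at 12 of 17 genes from Lcp65Ag3 to Cpr65Az, 6 of 12 from TwdlM to TwdlD, 5 of 7 Ccp84, 4 of 7 Cpr47E and 4 of 8 Cpr49A genes. They read 5′ to 3′ on the gene's own strand in the Release 6 sequence, with the strand given beside each name, and capitals mark TATAAA where it starts within the searched window.
Lcp65Ag3, chr3L:6130980-6131039, minus strand: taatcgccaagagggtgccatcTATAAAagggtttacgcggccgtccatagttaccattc
Cpr65Az, chr3L:6160764-6160823, plus strand: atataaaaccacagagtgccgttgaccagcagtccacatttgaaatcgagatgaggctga
Ccp84Ag, chr3R:6686678-6686737, plus strand: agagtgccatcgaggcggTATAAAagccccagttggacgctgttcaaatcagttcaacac
Ccp84Aa, chr3R:6704034-6704093, plus strand: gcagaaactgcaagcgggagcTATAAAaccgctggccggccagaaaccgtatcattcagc
TwdlM, chr3R:26619068-26619127, plus strand: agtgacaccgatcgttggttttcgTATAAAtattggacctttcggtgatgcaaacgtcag
TwdlD, chr3R:26639975-26640034, plus strand: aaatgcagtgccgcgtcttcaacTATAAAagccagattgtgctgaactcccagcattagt
Cpr72Ea, chr3L:16362553-16362612, plus strand: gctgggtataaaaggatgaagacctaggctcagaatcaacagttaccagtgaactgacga
Cpr72Eb, chr3L:16364849-16364908, plus strand: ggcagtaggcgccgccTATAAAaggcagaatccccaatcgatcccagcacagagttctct
Cpr72Ec, chr3L:16367331-16367390, minus strand: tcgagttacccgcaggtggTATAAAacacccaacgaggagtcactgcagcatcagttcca
In these the word starts from 26 to 34 bases before the TSS. Cpr65Az and Cpr72Ea also have it, but at 49 and 44 bases, outside the window. Cpr72Eb has both this word and the only IDR summit, which lies 554 bp upstream of the TSS and so outside the stretch shown.

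**Figure D5:**
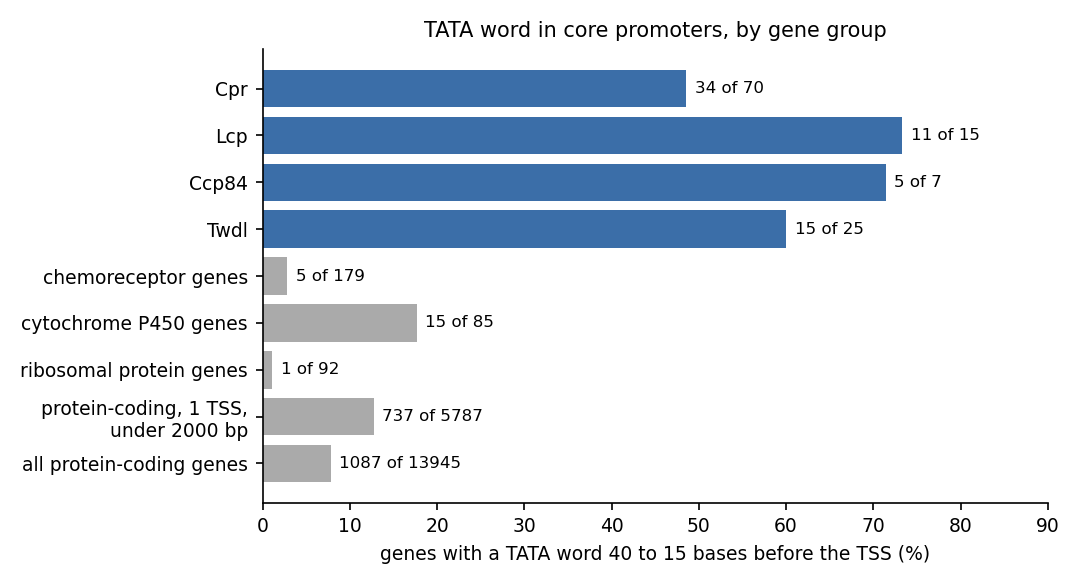
Share of genes (%) with the TATA word on their own strand 40 to 15 bases before the TSS, for the 4 cuticle families (blue) and other gene groups (grey), with counts beside the bars. The cuticle families range from 34 of 70 for Cpr to 11 of 15 for Lcp, and all protein-coding genes stand at 7.79%.

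Other words were counted on both strands from 250 bases before to 50 bases after the TSS. AATATT, which the related mammalian protein SALL4 binds, was in 13.7% of cuticle promoters and in 30.6% of all promoters of the same length. TATCGATA, the site of the factor Dref, was in 0.855% and in 9.36%. GAGAG, a site of GAGA factor, was in 30.8% and 29.7%, and TCAGT, part of the initiator, in 53.0% and 51.5%. CAAGGTCA, a word bound by the orphan nuclear receptor ftz-f1, was in 0% and 0.495%. Cuticle promoters had a median of 44% G and C and all promoters 38%.

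Genes for chitin, tanning and the control of moulting were read for comparison. Of 44 further genes of cuticle structure, chitin metabolism and tanning, 20 had a pooled summit (45.5%) and 2 an IDR summit (4.55%), against 44.4% and 14.8% of all protein-coding genes. The 2 were Cht7, a chitinase-family gene that helps to organise chitin, and mmy, which makes the sugar nucleotide from which chitin is built. Relative signal at Cht7 was 6.26, 4.52 and 9.24 in libraries 1, 2 and 3, and the summit stood 166 bp before the TSS. The peak at mmy was weaker, with 2.32 in library 1, 1.13 in library 2 and no match in library 3.

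The last list held 17 genes, most of them transcription factor genes with known links to moulting or cuticle. Of the 17, 13 had a pooled summit (76.5%) and 8 an IDR summit (47.1%) within 1000 bp. These shares were 44.4% and 14.8% over all protein-coding genes. These 17 genes have a median of 3 start sites, up to 9, and so more windows than the cuticle genes, most of which have 1. The part of this in the counts was not tested. The strongest was at Eip93F, an ecdysone-induced gene that drives adult development, with 5.95, 13.4 and 5.72 in libraries 1, 2 and 3, and library 2 was the highest. Eip75B, an ecdysone-induced nuclear receptor gene, had 8.20, 4.32 and 5.36. Next came grh, an epidermal barrier regulator (5.13 in the pooled list), usp, the partner of the ecdysone receptor (3.65), Sox21b (3.61) and Pdp1, a bZIP factor gene (3.06). The peak at grh was matched in libraries 1 and 3, and those at usp, Sox21b and Pdp1 in all 3. At grh the nearest TSS was that of an antisense RNA, asRNA:CR45270.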

How the data were processed

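The cuticle genes, gene lists and search words were chosen with earlier results of these data known, so no pattern here is independent support for them. Per the deposited file records, the authors made peak lists on dm6: 1 from each library alignment with 1 control alignment, 1 from the pooled libraries and an IDR list. The control was not analysed here. Each deposited peak has a signal, the strength assigned by the peak caller of the authors, whose scale no source explains. What aligned the reads and called the peaks is not given in the sources used here. Since the deposited lists hold no read numbers, the depth of each library is unknown.

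Genes and TSSs came from Ensembl BDGP6.54, release 115, on the 6 arms 2L, 2R, 3L, 3R, X and 4, and sequence from Release 6, whose coordinates dm6 shares. Summits were assigned within 1000 bp of any TSS, and summits within 100 bp were matched between lists; clusters are read from the lower to the higher coordinate. Gene bodies under 20 kb apart form a cluster of 2 or more. Shares carry 95% Wilson intervals that cover counting error only, and means and SDs are over 3 libraries. The named genes are those with an IDR summit, the 12 with the strongest pooled summit, those matched in all 3 libraries, the strongest peaks in and at clusters of 5 or more, and the 8 strongest of the other listed genes; further peaks were named from the counts after their values were seen. Of the listed symbols, 6 were not found in the annotation. Functions were tested on simulated data. Scripts ran in Python 3.11.15 with pandas 2.3.3, numpy 2.4.6, matplotlib 3.10.9 (figures) and scipy 1.17.1. Alternatives changed distances, cluster and border rules, the set of strong peaks and the libraries used.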

Additional observations from a re-analysis of the deposited data

How the results depend on the processing

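No paired analysis was possible because all 3 libraries belong to 1 group with nothing to pair them with. The share of cuticle genes with a pooled summit was 17.9% within 500 bp of a TSS, 37.6% within 2000 bp and 10.3% with only the pooled peaks above the median signal, against 36.5%, 55.7% and 32.6% of all protein-coding genes. The mean library share was 15.1% within 500 bp and 39.6% within 2000 bp, against 39.0% and 60.0%. With 1 library left out it ranged over 22.2% to 31.6%, against 44.8% to 52.2%. The cuticle genes stayed lower under each of these. An IDR summit lay within 500 bp at 0% and within 2000 bp at 3.42% (4 genes), against 12.1% and 18.9%. In clusters of 5 or more genes the border density was 0.8 per 10 kb, and the IDR share was 0% inside and 0% at borders. Borders of 20 kb gave 1.90 summits per 10 kb. With the 1000 strongest pooled peaks as strong, the share was 1.92% inside and 3.85% at borders, against 3.33% of all pooled peaks, so the contrast between zones rests on 1 and 2 peaks. Matching within 50 bp left 2 genes with a summit in all 3 libraries, against 4. Median relative signal inside clusters ran from 0.849 to 0.909 without a library. The cluster density inside spans stayed within 1 SD over libraries with gaps of 10 or 50 kb. Library 2 set the low end of density inside clusters. Depth is unknown and the library and pooled lists stop at 30000 peaks, so the weakest detectable peak cannot be stated. How reads of near-identical copies were placed was not tested.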
